A study of Mus musculus with 12 samples.

Results

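The genes of GABA signalling and of the interneurons that release GABA were followed through a count table of mostly non-coding transcripts from the mouse brain. The members were 37 named genes, and every row of the table whose Ensembl transcript identifier carries one of those gene names in GENCODE M21 was taken, with no use of the measured values. The table held rows for 27 of the 37 genes, in 70 of its 48033 rows, and the genes Gabra5, Gabrb1, Slc32a1, Slc12a2, Nlgn4l, Sst, Pvalb, Npy, Cck and Calb2 were not analysed here. Of the 70 rows, 45 are annotated as retained introns and 25 as processed transcripts, so the values below are those of rows annotated as non-coding. Many of their bases are also exons of the mRNAs, so mRNA reads are not excluded from the values. Rows were tested singly and after summing the rows of each gene.

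The libraries came from the hippocampus and the cerebral cortex of 7-month-old mice on the C57BL/6J background, 3 libraries from 5 × FAD mice and 3 from non-transgenic WT mice in each region. The 5 × FAD mice carry human APP and PS1 transgenes with familial Alzheimer's disease mutations, driven in neurons by elements of the Thy1 gene, and no other agent or allele was used in either genotype. Both regions were taken from each of 6 mice, so the 12 libraries are not from 12 animals. The comparison of 5 × FAD with WT asks which transcripts differ in the Alzheimer's disease model, and the comparison of the regions asks how the same transcripts differ between hippocampus and cortex.

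GABA is the main inhibitory transmitter of the forebrain. It is made by the glutamate decarboxylases, opens chloride channels formed by the GABA-A receptor subunits and acts on the slower, G-protein-coupled GABA-B receptor. The direction of the chloride current depends on transporters such as KCC2, and interneurons arise under the control of Dlx, Lhx6 and Sox6 and are told apart by peptides and calcium-binding proteins. In tissue pieces such as these, fewer cells of a type and less RNA per cell cannot be told apart.

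The library totals were 3517967 to 5014389 counts. Xist was at 7585 to 10320 CPM, counts scaled to the size of the library, in the libraries 5 × FAD 1 and 5 × FAD 2 of both regions and at most 5.67 CPM in the other 8, while Y-linked transcripts had 1074 to 1661 counts in those 8 and 0 in the former 4. The series states 2 females and 1 male per group, which the WT libraries go against. By these counts the WT libraries and 5 × FAD 3 of both regions read as male, and 5 × FAD 1 and 2 as female. A difference of 5 × FAD 1 and 2 from WT therefore cannot be told apart from a difference of sex. Of the 12 microglia markers, 4 were listed, none of them at 0 in every library, and their summed level was 182 to 248 CPM in 5 × FAD 1 and 2, 49.98 and 27.7 CPM in 5 × FAD 3, and 32.3 to 61.5 CPM in WT. The third 5 × FAD library of each region therefore stood apart from the other two, and the genotype counts and the members nearest to a call are also given without it. The region labels went with their markers: the 4 listed of 8 hippocampus markers summed to 109 to 129 CPM in the hippocampus and 25.6 to 47.8 CPM in the cortex, and the 6 listed of 9 cortex markers to 162 to 304 and 323 to 536 CPM. The 4 listed of 7 striatum markers, of a region rich in GABA neurons, summed to 55.8 to 247 CPM in the hippocampus libraries and 221 to 513 CPM in the cortex libraries.

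The member rows lie largely on or beside the coding exons of their genes. A median of 36.6% of a row's bases lay outside the coding transcripts' exons, 29 of the 70 rows lay mostly outside them, and 44 shared bases with another listed row of the same gene. Where a row runs from a coding exon on into the intron, a read over that boundary belongs to unspliced or intron-retaining RNA, and 49 rows of 25 genes held 65 such boundaries. All 36 donor boundaries read GT and all 29 acceptor boundaries read AG on the intron side. A whole intron of the coding transcript was held in 6 rows, among them the Slc12a5 row with most counts and the main Gabrd row. Of the bases of these 2 rows, 16.8% and 31.4% lay outside the coding transcripts' exons. Boundary and intron sequences are shown because the results on Slc12a5, Gabrd, Kit and Gabra2 below are read from rows that hold them. They were read from the GENCODE M21 transcripts (GRCm38), 5′ to 3′. Slc12a5 is on the plus strand of chromosome 2, and the intron chr2:164996879-164997109, with 15 coding bases on each side, is in capitals:
Slc12a5 ENSMUST00000137302: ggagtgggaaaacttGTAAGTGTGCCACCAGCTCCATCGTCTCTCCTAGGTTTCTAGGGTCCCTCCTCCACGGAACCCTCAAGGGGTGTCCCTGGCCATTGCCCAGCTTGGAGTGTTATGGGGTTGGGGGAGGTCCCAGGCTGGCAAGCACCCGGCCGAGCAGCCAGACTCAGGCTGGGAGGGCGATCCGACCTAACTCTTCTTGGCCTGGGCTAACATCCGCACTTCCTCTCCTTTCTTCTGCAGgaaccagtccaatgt
Gabrd is on the minus strand of chromosome 4, and the shorter of the 2 introns in its main row, chr4:155386147-155386402, is again in capitals between coding flanks:
Gabrd ENSMUST00000150423: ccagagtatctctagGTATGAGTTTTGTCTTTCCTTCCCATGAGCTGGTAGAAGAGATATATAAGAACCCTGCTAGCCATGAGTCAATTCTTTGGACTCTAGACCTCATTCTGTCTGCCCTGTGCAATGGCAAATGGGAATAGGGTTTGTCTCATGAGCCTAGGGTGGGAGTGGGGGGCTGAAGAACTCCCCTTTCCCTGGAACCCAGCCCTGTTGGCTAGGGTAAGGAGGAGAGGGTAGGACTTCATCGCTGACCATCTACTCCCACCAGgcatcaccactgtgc
For the other rows the boundary of exon and intron is given in 30 bases, with the GT or AG of the intron in capitals. They are the acceptor of the second Slc12a5 row (chr2:164982797-164982826, plus strand), the acceptor and the donor around a Kit exon (chr5:75649532-75649561 and chr5:75649655-75649684, plus), the acceptor of the second Kit row (chr5:75645821-75645850, plus), the donor of the Gabra2 row (chr5:71091957-71091986, minus), the donor of the retained-intron row of Gad1 (chr2:70574297-70574326, plus) and the donor of the main Reln row (chr5:22004022-22004051, minus):
Slc12a5 ENSMUST00000135918: ttcatcttcccacAGagaacctgtggagtt
Kit ENSMUST00000201240 acceptor: tttctcccccaacAGtgtattcacagagat
Kit ENSMUST00000201240 donor: gtggtcaaaggaaatGTgagtacctttctc
Kit ENSMUST00000148993: cttctatcctcatAGggcccaccctggtca
Gabra2 ENSMUST00000199012: gaccaggactgggagGTaaaaatagttttc
Gad1 ENSMUST00000155979: acggggttcgcacagGTaagagtaagagat
Reln ENSMUST00000162427: cttcagcaaacccagGTaagctccacctgg

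Levels are CPM scaled by edgeR's TMM factors, and between genes they are compared only per kb of row length. The mean over all 12 libraries was 186 CPM per kb for Gad1 ENSMUST00000140478, 93.6 for Slc12a5 ENSMUST00000135918, 47.4 for Reln ENSMUST00000162427, 35.9 for Gabrb2 ENSMUST00000143626 and 31.4 for Gabra4 ENSMUST00000199150. At the other end, the row of Tac1, the precursor of substance P, was at 0.117 CPM per kb with 0 to 4 counts in a library. The row Adarb2 ENSMUST00000223148 had 0 counts in every library, which allows up to 3 counts, or 0.598 to 0.853 CPM. The rows of the interneuron peptide gene Vip, of Dlx2 and of gephyrin, the scaffold of inhibitory synapses, reached at most 17, 10 and 12 counts. Differences in rows of so few counts could be missed at this depth. The Dlx2 row was not tested. The Vip row was not tested between the genotypes in the hippocampus and was not called in the other comparisons. Gephyrin (Gphn) lay between 0.664 and 2.72 CPM and was not tested. In the plot of level against position, high rows lie both inside and outside the coding exons.

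**Figure D1:**
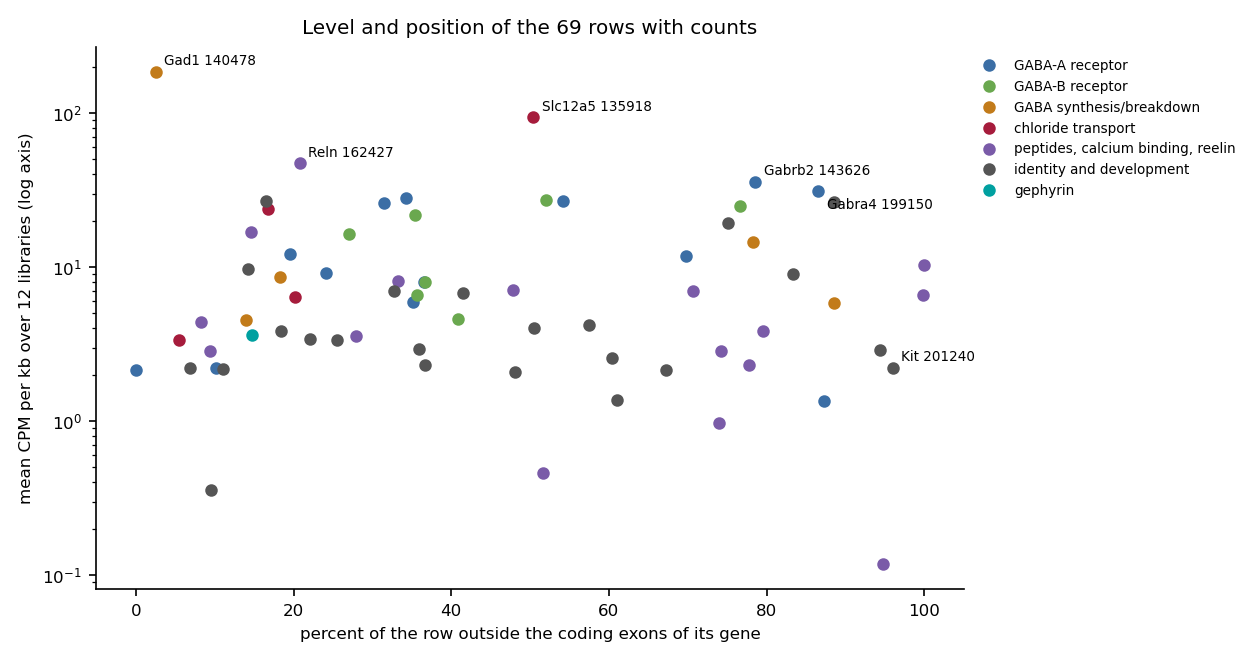
Mean CPM per kb over the 12 libraries (log axis) of the 69 member rows with counts, against the percent of the row's bases outside the coding exons of its gene. Each point is a row, coloured by role, and Gad1 ENSMUST00000140478 is the highest at 186 CPM per kb.

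The spread between replicates was similar for the members and for all rows. The coefficient of variation within a group, averaged over the 4 groups, had a median of 31.1% for the 54 member rows tested and 30.3% for all 24632 rows tested. For gene sums the medians were 25.3% for 23 members and 23.5% for 12104 genes or loci. Gabbr1, the GABA-B subunit that binds the transmitter, was the steadiest member at 6.08%, and Gad1 the least steady at 131%.

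Gad1, the gene of the GABA-synthesising enzyme GAD67, owed its spread to 1 row. ENSMUST00000140478 (chromosome 2, 70566377 to 70602012, plus strand), a processed transcript with 2.57% of its bases outside the coding exons, had 6129, 0 and 0 counts in the hippocampus of WT 1, 2 and 3, and 9216, 0 and 1669 in 5 × FAD 1, 2 and 3. The cortex libraries had 2055, 3468 and 0 (WT) against 0, 1 and 6453 (5 × FAD). It was thus above 100 counts in 6 libraries and at 0 or 1 in the other 6, and both states occurred in all 4 groups. Of the 48033 rows of the table, 379 were all-or-none in this way, with at least 100 or at most 3 counts in every library. The other Gad1 row, the retained intron shown above, had 76 to 453 counts in the hippocampus and 108 to 395 in the cortex, so the gene was represented in every library. The summed Gad1 fold of 5 × FAD over WT was 0.97 ± 1.68 (SE, log2 scale) in the hippocampus, and that of the retained-intron row alone was −0.22 ± 0.69. Neither passed the test (edgeR's quasi-likelihood test, adjusted p = 0.884 and 0.957), and the sum and the retained-intron row differed in sign. Other members also had rows that varied widely within groups. The main Gabra2 row, for a receptor subunit of cortical and hippocampal neurons, ranged from 71 to 724 counts. Kit ENSMUST00000202167 held from 1.13% to 78.8% of the Kit counts of a library. The main Sox6 row, ENSMUST00000206573, had 7 counts in the hippocampus of 5 × FAD 2 and 62 to 96 in the other 11 libraries.

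**Figure D2:**
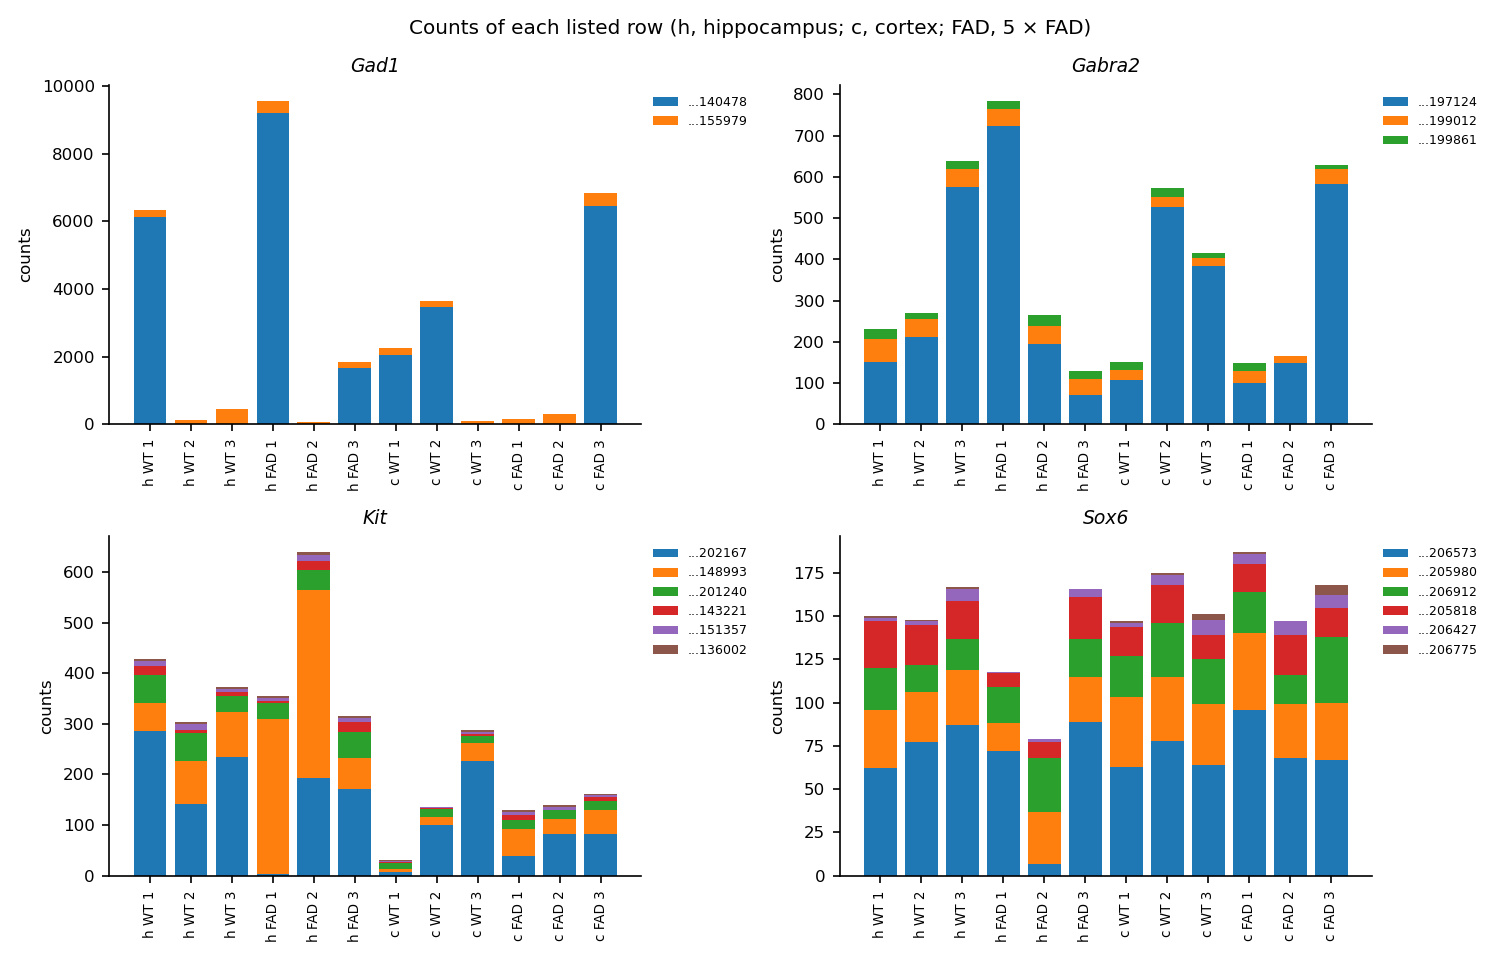
Counts of each listed row of Gad1, Gabra2, Kit and Sox6 in the 12 libraries, stacked per library, with the last 6 digits of the transcript identifier in the key. Gad1 ENSMUST00000140478 makes up nearly all of the bar in the 6 libraries in which it is above 100 counts and is absent from the bars of the other 6.

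In the hippocampus, no member passed the test between 5 × FAD and WT mice. By edgeR with Benjamini-Hochberg adjustment at 0.05, 0 of 52 member rows and 0 of 22 gene sums were called, against a background of 0.0183% of all rows and 0.0529% of all sums. DESeq2 also called 0. At an unadjusted p under 0.05 there were 3 member rows and 2 sums, against 7.58% and 8.69% of all features. Without 5 × FAD 3, 11 of 53 member rows and 2 of 22 sums reached it, beside 2802 of 23404 rows and 1644 of 11717 sums in all, and 0 members were called. The groups did not overlap for 4 member rows and 2 sums, all higher in 5 × FAD, where 7.26% of all rows and 7.32% of all sums did not overlap with 5 × FAD higher. The rows were Slc12a5 ENSMUST00000135918 and ENSMUST00000137302, Gabrd ENSMUST00000150423 and Sox6 ENSMUST00000206912, and the sums were Slc12a5 and Gabrd. The median log2 fold change was 0.25 over the member rows and 0.02 over all rows, and 32 of the 52 were above 0.

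Slc12a5 had the lowest p of the sums. It encodes KCC2, the neuronal potassium-chloride cotransporter that keeps chloride in neurons low. Its 4 summed rows were at 104, 121 and 122 CPM in the WT hippocampus and 165, 166 and 217 CPM in the 5 × FAD hippocampus. All 5 × FAD libraries lay above all WT libraries. The log2 fold change was 0.69 ± 0.18 (SE, n = 3 and 3), with unadjusted p = 0.00615 and adjusted p = 0.495 (edgeR across all sums), so it was not called. The 2 rows that hold most of its counts, which share no base with another listed row, gave like values. The other 2 rows, of few counts, had lower means in 5 × FAD hippocampus. ENSMUST00000124372 was at 2.90 CPM in WT and 2.09 CPM in 5 × FAD, and ENSMUST00000208579 at 1.76 and 1.11 CPM. ENSMUST00000135918 (chromosome 2, 164982437 to 164986645) was at 52.8, 51.0 and 48.0 CPM in WT and 73.1, 68.4 and 91.8 CPM in 5 × FAD. ENSMUST00000137302 (chromosome 2, 164996591 to 164999722), which holds the whole intron printed above, was at 47.9, 64.6 and 69.2 CPM in WT and 85.8, 94.4 and 120 CPM in 5 × FAD. Only 16.8% of the bases of ENSMUST00000137302 lie outside the coding exons, against 50.4% for ENSMUST00000135918. Most bases of the former are thus also exons of the mRNA. Neither row overlapped between the genotypes. Their log2 fold changes were 0.63 ± 0.20 and 0.74 ± 0.23, each with adjusted p = 0.612, and 0.50 ± 0.17 and 0.59 ± 0.22 without 5 × FAD 3. Without that library the sum gave 0.54 ± 0.15 (edgeR, adjusted p = 0.267). With detection of Xist as a covariate the sum gave 0.94 ± 0.18. Xist was high only in 5 × FAD 1 and 2, so that fit sets 5 × FAD 3 alone against WT.

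In the cortex Slc12a5 lay the other way. The sum was at 135, 187 and 191 CPM in WT and 150, 90.6 and 107 CPM in 5 × FAD, so that 5 × FAD 1 lay within the range of WT and the other two below it. Here the log2 fold change was −0.57 ± 0.23 (edgeR, adjusted p = 0.740), and −0.51 ± 0.27 without 5 × FAD 3. ENSMUST00000137302 was at 55.3, 91.6 and 94.6 CPM in WT and 62.3, 40.6 and 29.9 CPM in 5 × FAD, with a log2 fold change of −0.86 ± 0.34 (edgeR, adjusted p = 0.912), and −0.64 ± 0.34 without 5 × FAD 3. The difference of the 2 genotype effects, tested as an interaction over the 12 libraries, was 1.23 ± 0.30 on the log2 scale, with unadjusted p = 0.00177 and adjusted p = 0.647 (edgeR). It did not pass. No member passed the interaction test, in 54 rows and 23 sums, against 0.00812% of all rows and 0 of all sums. An unadjusted p under 0.05 was reached by 2 member rows and 2 sums (6.89% of all rows and 7.01% of all sums). DESeq2 called 0 members in the interaction.

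**Figure D3:**
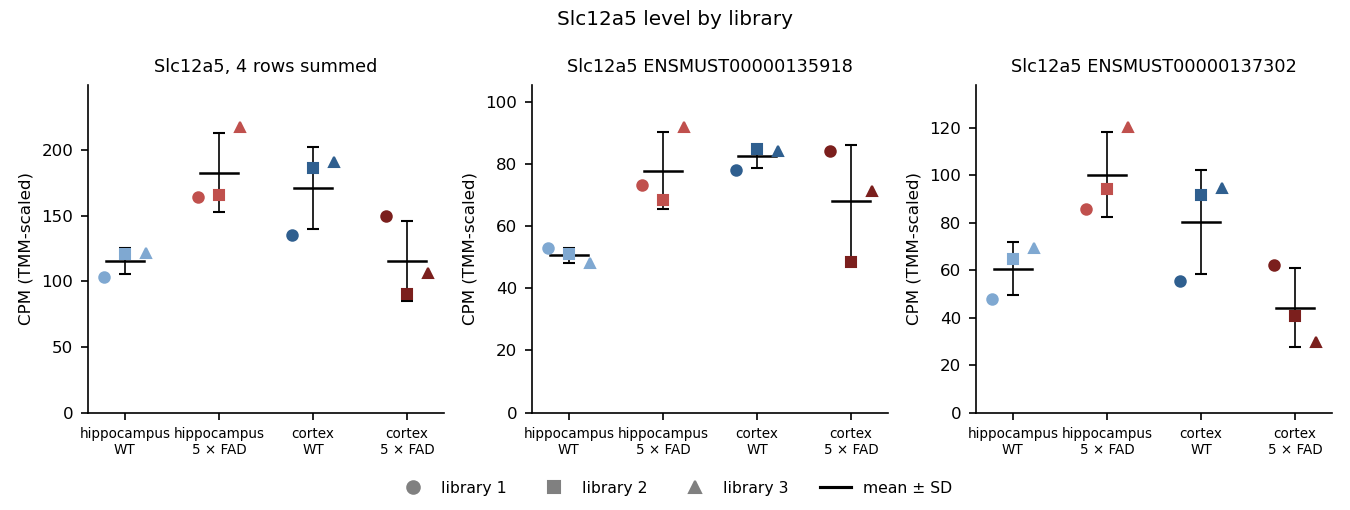
Slc12a5 in CPM, as the sum of its 4 rows and for its 2 main rows, in the 4 groups. Points are libraries and bars are the mean ± SD of 3. In the hippocampus all 5 × FAD points lie above all WT points, and in the cortex the groups overlap.

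Some summed markers of other cells also differed between the genotypes, and their part in the Slc12a5 values was not tested. The 5 listed of 8 oligodendrocyte markers summed to 348 to 438 CPM in WT and 505 to 591 CPM in 5 × FAD hippocampus, and to 299 to 468 and 538 to 611 CPM in the cortex. The 6 listed of 8 astrocyte markers summed to 1483 to 1565 CPM in WT and 542 to 1221 CPM in 5 × FAD hippocampus, and to 978 to 1604 and 982 to 1548 CPM in the cortex, where they overlapped. The 3 listed of 5 endothelial markers summed to 29.1 to 55.1 CPM in WT and 59.8 to 72.9 CPM in 5 × FAD hippocampus, without overlap, and to 69.8 to 82.1 and 38.1 to 72.8 CPM in the cortex. The 5 listed of 8 excitatory neuron markers summed to 521 to 1958 and 608 to 3841 CPM in the hippocampus and to 497 to 1103 and 350 to 446 CPM in the cortex. Striatum markers, 4 listed of 7, summed to 221 to 372 CPM in WT and 474 to 513 CPM in 5 × FAD cortex, without overlap. In the hippocampus they summed to 74.8 to 247 and 55.8 to 164 CPM and overlapped. None of the listed markers of these lists was at 0 in every library. The sums and the single genes did not always go together. In the hippocampus the median log2 fold change of the genes tested was −0.08 for oligodendrocyte and −0.02 for astrocyte markers. It was 0.21 for endothelial and −0.65 for excitatory markers. In the cortex these medians were 0.54, 0.00, −0.20 and −0.51. No marker of these lists was called between the genotypes in either region. In 5 × FAD 3 of the hippocampus Slc12a5 was at 217 CPM and the microglia markers at 49.98 CPM. This is a single library, and the relation of the 2 levels was not tested.

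The GABA-A receptor genes gave 5 of 6 tested sums above 0 for 5 × FAD over WT in the hippocampus and 2 of 6 in the cortex, none of them called. Gabrd encodes the delta subunit of receptors outside the synapse. Its summed level was 56.1, 33.8 and 45.1 CPM in the WT hippocampus and 85.6, 61.8 and 60.6 CPM in 5 × FAD, without overlap. This gave a log2 fold change of 0.65 ± 0.25 (edgeR, adjusted p = 0.542), and 0.73 ± 0.27 without 5 × FAD 3. With detection of Xist as a covariate, which sets 5 × FAD 3 alone against WT, the log2 fold change was 0.45 ± 0.34. In the cortex Gabrd was at 86.8, 121 and 81.8 CPM in WT and 99.6, 83.7 and 77.5 CPM in 5 × FAD, where the groups overlapped. Gabrb2, the beta subunit with the highest summed counts of the group, was at 86.6, 106 and 104 CPM in WT and 97.8, 125 and 86.4 CPM in 5 × FAD hippocampus. Its log2 fold change was 0.09 ± 0.19, within the spread between replicates. Gabra4, a partner of the delta subunit in the forebrain, gave 0.20 ± 0.18.

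None of the sums of the GABA-B receptor genes and of the enzymes was called between the genotypes. Gabbr1 was at 44.6, 43.8 and 42.7 CPM in the WT hippocampus and 35.8, 37.1 and 48.3 CPM in 5 × FAD, with a log2 fold change of −0.08 ± 0.19. In the cortex it gave 0.03 ± 0.13, with 52.4 to 56.3 CPM in all 6 libraries. Gabbr2, the subunit that couples to the G protein, was at −0.09 ± 0.30 in the hippocampus and −0.66 ± 0.33 in the cortex (edgeR, adjusted p = 0.939 and 0.756). Gad2, the gene of GAD65, had 10 to 40 counts per library and a log2 fold change of 0.59 ± 0.47 in the hippocampus. Abat, the enzyme that breaks down GABA, gave 0.56 ± 0.40 there.

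Of the genes of interneuron identity, 6 of 8 tested sums lay above 0 in the hippocampus and 4 of 8 in the cortex, with 0 called. Adarb2, a marker of interneurons from the caudal ganglionic eminence and the identity gene with most counts, was at 145, 140 and 149 CPM in the WT hippocampus and 319, 146 and 106 CPM in 5 × FAD. The first 5 × FAD library alone was high. The same library was at 83.4 CPM for Dlx1, a transcription factor of interneuron development, against 14.3 to 27.1 CPM in the other 5 hippocampus libraries. It was also the highest of the 12 in Gad1. Other members went the other way in this library, with Lhx6 at 2.49 CPM and Erbb4 at 1.99 CPM, each the lowest of the 12. The summed excitatory neuron markers were also highest there, at 3841 CPM. Kit ENSMUST00000148993 (chromosome 5, 75645697 to 75652856), from the gene of the stem cell factor receptor that marks a class of interneurons, was at 12.2, 18.1 and 20.2 CPM in the WT hippocampus and 75.0, 85.7 and 14.8 CPM in 5 × FAD. It was high in 5 × FAD 1 and 2, the libraries high in Xist and in the microglia markers, and in the range of WT in 5 × FAD 3. Its log2 fold change of 1.81 ± 0.62 (edgeR, adjusted p = 0.612) became 2.27 ± 0.27 without 5 × FAD 3 (edgeR, adjusted p = 0.0894). With detection of Xist as a covariate, which sets 5 × FAD 3 alone against WT, the log2 fold change was −0.17 ± 0.35. Of the bases of this row 57.5% are shared with other listed Kit rows, and how reads over them were divided is not given in the sources used here. The row has 16.5% of its bases outside the coding exons. The Kit sum was at 91.1, 64.6 and 84.6 CPM in the WT hippocampus and 88.1, 147 and 77.8 CPM in 5 × FAD. These values overlapped, with a log2 fold change of 0.41 ± 0.28 (edgeR, adjusted p = 0.683). Kit ENSMUST00000202167, the Kit row with most counts, gave −0.72 ± 1.01, with 4 counts in 5 × FAD 1.

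In the cortex, 0 of 50 member rows and 0 of 23 sums were called between the genotypes, against 0.0545% and 0.0175% of all features, and DESeq2 called 0. An unadjusted p under 0.05 was reached by 2 rows and 1 sum (5.34% and 6.67% of all features), and without 5 × FAD 3 by 1 of 53 rows and 0 of 23 sums, beside 1248 of 23089 rows and 743 of 11681 sums in all. The groups did not overlap for 3 rows and 2 sums, where 12.1% and 13.1% of all features did not. Adarb2 ENSMUST00000139438 and the Dlx1 sum were higher in 5 × FAD, and Reln ENSMUST00000160707, Erbb4 ENSMUST00000126682 and the Erbb4 sum lower. The median log2 fold change was −0.03 over the member rows and 0.00 over all rows. Erbb4 ENSMUST00000126682, from the gene of the neuregulin receptor of interneurons, was counted 12, 19 and 16 times in the WT libraries and 10, 8 and 9 times in those of 5 × FAD. The groups did not overlap, but the counts are few. Its log2 fold change was −0.82 ± 0.32 (edgeR, adjusted p = 0.912), and −0.79 ± 0.39 without 5 × FAD 3. The Dlx1 sum was at 26.97, 8.60 and 10.5 CPM in WT and 27.7, 36.9 and 27.2 CPM in 5 × FAD, and the lowest 5 × FAD value lay just above the highest of WT.

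**Figure D4:**
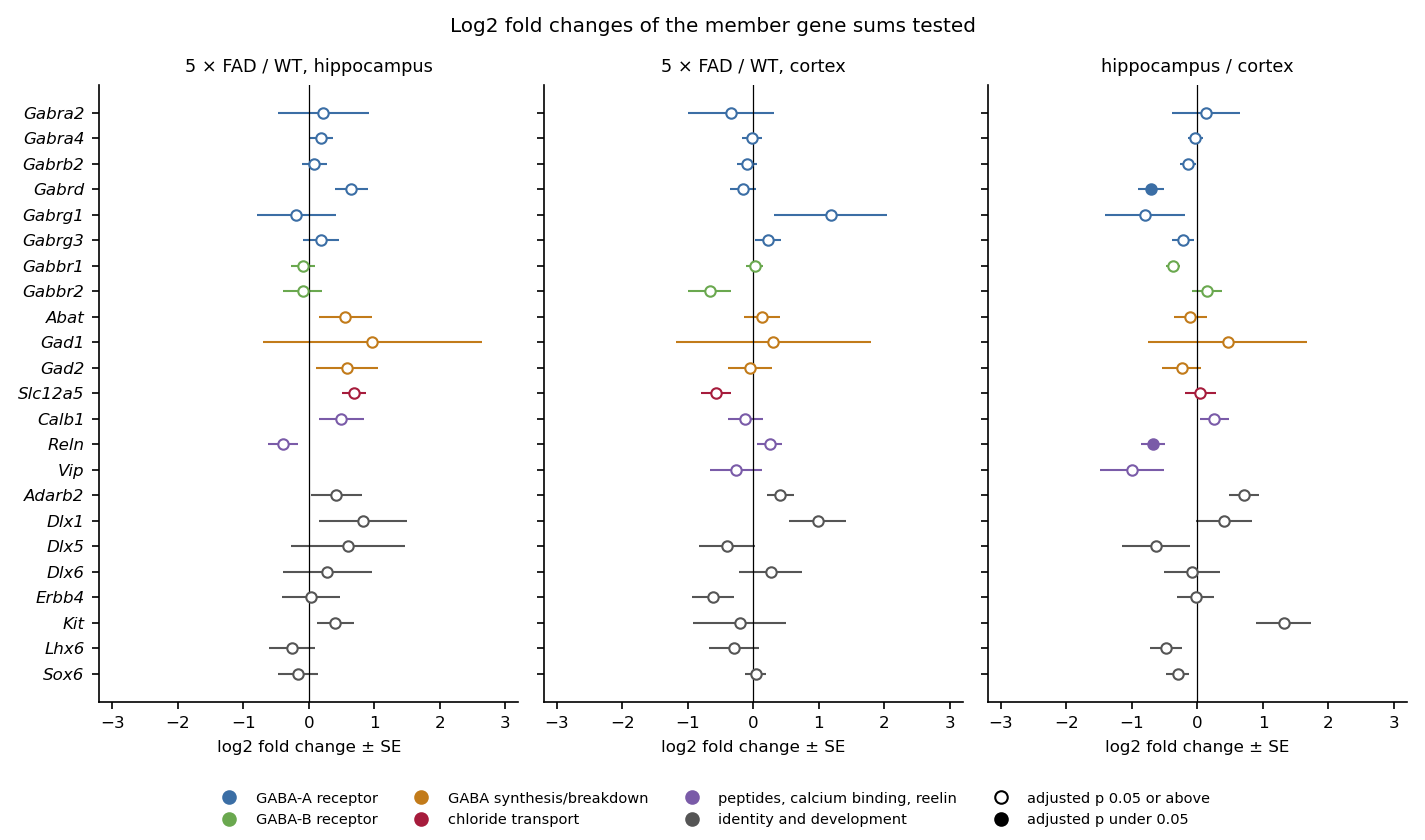
Log2 fold change ± SE of the member gene sums tested, for 5 × FAD over WT in each region (n = 3 and 3) and for hippocampus over cortex (n = 6 and 6), coloured by role, with filled points for an adjusted p under 0.05. No point is filled in the genotype panels, and Reln and Gabrd are filled in the region panel.

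Between the regions, 3 member rows were higher in the hippocampus, and the sums of Reln and Gabrd were lower there. These are 3 of 54 rows and 2 of 23 sums, tested with the 12 libraries taken as separate although both regions come from the same mice. With the replicate number as a block, Kit ENSMUST00000201240 alone of these 5 passed. Over all features, 2.63% of rows were called (1.49% higher) and 6.66% of sums (3.15% lower). An unadjusted p under 0.05 was reached by 16 member rows and 5 sums, against 13.6% and 19.0% of all features. The 6 hippocampus and 6 cortex libraries did not overlap for 4 member rows, the 3 called and Sox6 ENSMUST00000205980, and for the Gabbr1 sum, where 3.00% and 4.74% of all features did not. The median log2 fold change was −0.08 over the member rows and −0.11 over the sums, and 0.00 over all of either.

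Kit ENSMUST00000201240 (chromosome 5, 75649193 to 75652296), a single exon with 96.0% of its bases outside the coding exons, was the clearest. In the hippocampus it was at 11.8, 11.5 and 7.05 CPM in WT and 7.87, 8.98 and 12.7 CPM in 5 × FAD. In the cortex it was at 2.85, 3.66 and 3.94 CPM in WT and 3.77, 4.57 and 4.30 CPM in 5 × FAD. Every hippocampus library lay above every cortex library. The log2 fold change was 1.37 ± 0.20 (edgeR, adjusted p = 0.00351, and 0.0429 with the replicate block), and it passed in all 12 fits that left out 1 library. In the WT libraries alone it was 1.51 ± 0.30 and in the 5 × FAD libraries alone 1.22 ± 0.31, neither of which passed with 6 libraries (edgeR, adjusted p = 0.0969 and 0.307).

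The other Kit row called, ENSMUST00000148993, was at 1.66, 3.23 and 9.86 CPM in the WT cortex and 12.0, 8.06 and 10.6 CPM in the 5 × FAD cortex. With the hippocampus values above, the lowest of the hippocampus, 12.2 CPM, was just over the highest of the cortex. The log2 fold change was 2.16 ± 0.48 (edgeR, adjusted p = 0.0363, and 0.0737 with the replicate block). It passed in 2 of the 12 fits that left out 1 library, those without the hippocampus of 5 × FAD 3 and without the cortex of WT 3, with 2.35 and 2.61. The Kit sum was at 64.6 to 147 CPM in the hippocampus and 7.27 to 82.1 CPM in the cortex, with 1.32 ± 0.42 (edgeR, adjusted p = 0.0883), and was not called. Without the cortex of WT 3 it passed, at 1.83 (edgeR, adjusted p = 0.0069).

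Gabra2 ENSMUST00000199012 (chromosome 5, 71091750 to 71094865, minus strand), a retained intron of the alpha2 subunit gene with 69.8% of its bases outside the coding exons, was at 11.8, 9.60 and 9.78 CPM in WT and 10.1, 9.90 and 9.49 CPM in 5 × FAD hippocampus. In the cortex it was at 5.46, 5.39 and 5.35 CPM in WT and 5.99, 4.57 and 7.93 CPM in 5 × FAD. The regions did not overlap. Their log2 fold change was 0.80 ± 0.16 (edgeR, adjusted p = 0.0232, and 0.102 with the replicate block), and it passed in 4 of the 12 fits without 1 library, those without any of the hippocampus 5 × FAD libraries or without the cortex of 5 × FAD 3. It was 0.92 ± 0.21 in the WT libraries alone and 0.66 ± 0.30 in the 5 × FAD libraries alone. The sum of the 3 Gabra2 rows, most of whose counts are those of ENSMUST00000197124, gave 0.12 ± 0.52.

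Reln encodes reelin, an extracellular protein of Cajal-Retzius cells and of interneurons. Its 12 summed rows were at 301, 360 and 205 CPM in WT and 242, 209 and 196 CPM in 5 × FAD hippocampus. In the cortex they were at 413, 280.5 and 404 CPM in WT and 484, 371 and 458 CPM in 5 × FAD. In WT mice the regions overlapped, and in 5 × FAD mice they did not. The log2 fold change was −0.68 ± 0.18 (edgeR, adjusted p = 0.0416, and 0.111 with the replicate block), and it was −0.37 ± 0.24 in the WT libraries alone and −1.02 ± 0.18 in the 5 × FAD libraries alone. The call was kept without WT 1 or WT 2 of the hippocampus or WT 2 of the cortex and lost without any of the other 9 libraries, with an adjusted p of 0.0627 to 0.104 (edgeR). The main row, ENSMUST00000162427, which holds 48.5% to 82.3% of the counts, gave −0.83 ± 0.28 (edgeR, adjusted p = 0.185).

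The Gabrd sum, with the values given above, had a log2 fold change of −0.71 ± 0.19 (edgeR, adjusted p = 0.0481, and 0.114 with the replicate block). It was −1.12 ± 0.24 in the WT libraries alone and −0.33 ± 0.21 in the 5 × FAD libraries alone, and the difference of the 2 genotype effects, 0.77 ± 0.33, did not pass (edgeR, adjusted p = 0.692). The call was kept in 2 of the 12 fits without 1 library, those without the hippocampus of 5 × FAD 1 and without the cortex of 5 × FAD 3. The striatum markers moved in the same direction as Reln and Gabrd, as given above, and their part in these values was not tested.

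**Figure D5:**
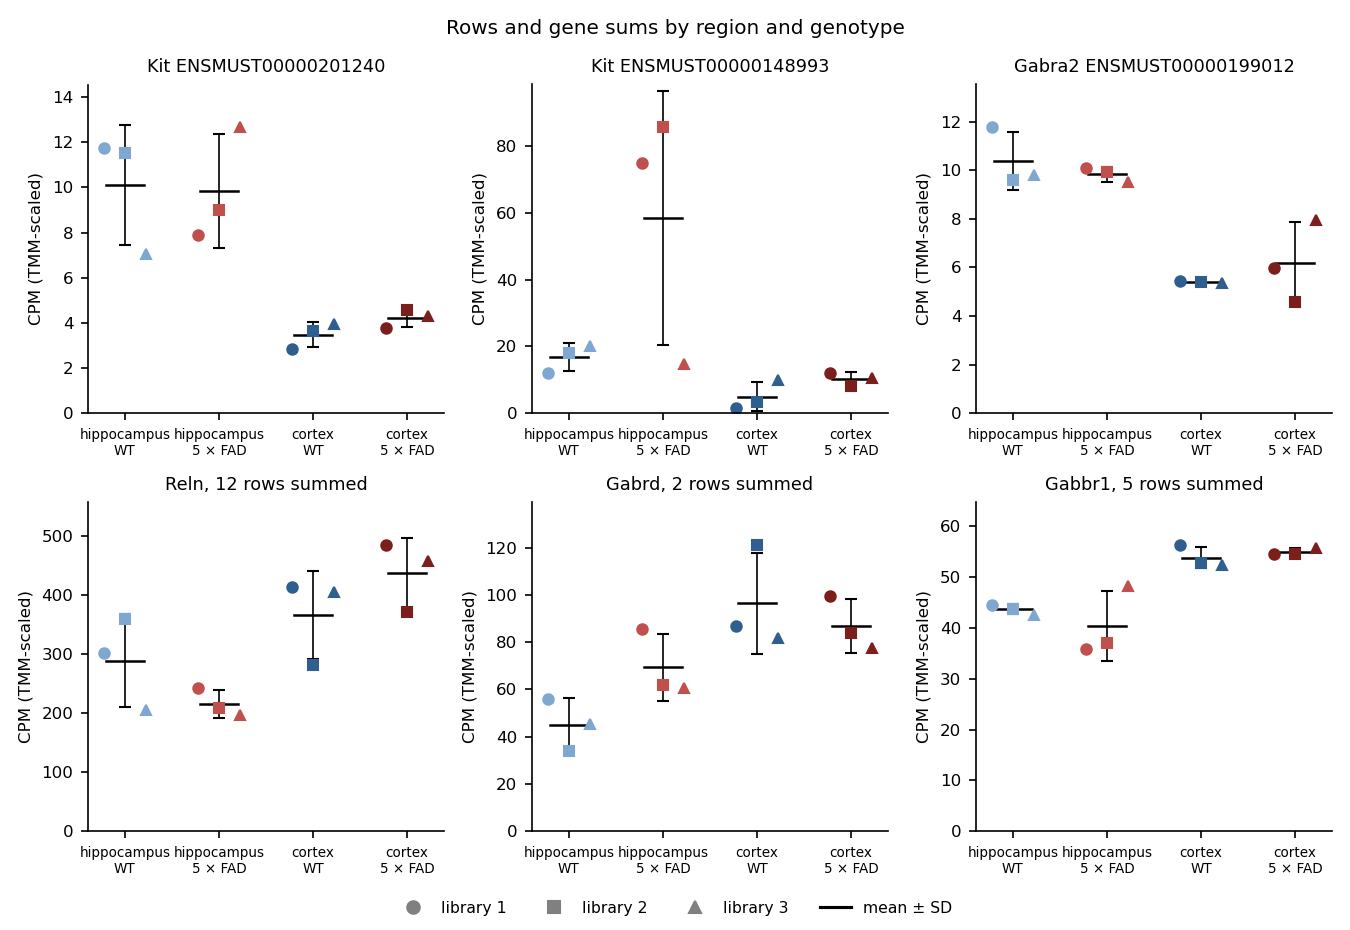
CPM of the member rows called between the regions and of the sums of Reln, Gabrd and Gabbr1 in the 4 groups. Points are libraries and bars are the mean ± SD of 3. The Kit and Gabra2 rows are higher in all hippocampus libraries, and Gabbr1 is lower in all of them.

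Other members lay close to the threshold. Gabbr1 was at 35.8 to 48.3 CPM in the hippocampus and 52.4 to 56.3 CPM in the cortex, the only member sum of the 23 tested whose regions did not overlap, with −0.37 ± 0.10 (edgeR, adjusted p = 0.0508). Adarb2 was at 106 to 319 CPM in the hippocampus and 76.0 to 147 CPM in the cortex, with 0.71 ± 0.23 (edgeR, adjusted p = 0.0944). Each passed in 1 of the 12 fits without 1 library, that without the hippocampus of 5 × FAD 3, at −0.44 and 0.84 (edgeR, adjusted p = 0.0180 and 0.0261). In the other 11 the adjusted p reached 0.112 for Gabbr1 and 0.201 for Adarb2, and without the hippocampus of 5 × FAD 1, its highest library, Adarb2 was at 0.44. Between the regions the Slc12a5 sum was at 0.05 ± 0.23, Gabra4 at −0.03 ± 0.11 and Gabrb2 at −0.14 ± 0.12, none of them called.

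Of 53 further genes of GABA transport, receptor assembly, scaffolds and interneuron classes, 30 had rows. In each genotype comparison 0 of 22 tested sums were called, beside the 0.0529% and 0.0175% of all sums given above. Gabarap, a carrier of GABA-A receptors that also serves autophagy, had the largest distance in the cortex, at 5.39, 8.17 and 2.56 CPM in WT and 14.2, 16.5 and 24.0 CPM in 5 × FAD (1.73 ± 0.42, edgeR, adjusted p = 0.698). Between the regions 1 of 23 was called, beside 6.66% of all sums. Lamp5, a marker of neurogliaform interneurons and of some upper-layer neurons, was at 22.5 to 44.0 CPM in the hippocampus and 38.1 to 87.7 CPM in the cortex, and was lower in the hippocampus by a log2 fold change of −1.04 ± 0.23 (edgeR, adjusted p = 0.0145).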

How the data were processed

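Total RNA of hippocampus and cortex was depleted of ribosomal RNA and made into stranded paired-end libraries, per the labels. The authors deposited 1 table of counts per transcript, not normalised. Their processing notes name Trimmomatic 0.36 and edgeR. The counting program, its strand setting and the genome build are not given in the sources used here, so reads shared by overlapping rows, and by the 3 member rows that overlap a gene on the opposite strand, cannot be divided.

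Ensembl identifiers were matched to GENCODE M21 (GRCm38), which lacked 225 of 45597, and 2436 rows were assembled transcripts without an Ensembl identifier. Rows, and row sums per gene, were filtered by filterByExpr, scaled by TMM and tested with edgeR 4.0.16 (quasi-likelihood, R 4.3.3, limma 3.58.1) with Benjamini-Hochberg adjustment over all features tested and a threshold of 0.05. Genotype was tested within each region on 6 libraries, and region (averaged over genotypes) and the interaction on all 12 as separate libraries. DESeq2 1.42.0 and other scalings, filters, covariates and left-out libraries were alternatives. The scripts were tested on simulated row counts with known changes. Of log2 changes of 2, 4.65% were called for genotype in the hippocampus and 3.45% in the cortex. Between the regions 69.5% were called, and 2.11% in the interaction. For log2 changes of 3 the shares were 36.5%, 43.0%, 85.6% and 20.6%. Between the regions 16 of 165 calls were false. Figures used Python 3.11.15, pandas 2.3.3 and matplotlib 3.10.9. No pair of libraries agreed within sampling noise. The labels do not tie the replicate numbers to mice, so p-values measure the spread between these libraries, and floors cover counting error only.

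The members and lists were chosen with earlier results of these data known. Named with values are members called in a comparison, those with an unadjusted p under 0.05 and no overlap between genotypes, the gene with most counts in each role, and the main row of each gene with over 5 rows. Other genes and rows named were chosen after their values were seen.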

Additional observations from a re-analysis of the deposited data

Results flagged for a closer look

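For 2 member gene sums every 5 × FAD library lay on one side of the WT mean in the hippocampus and on the other side in the cortex. The share of all sums with this pattern was not counted, so it is not a result about the members as a set. For Reln the margin in the cortex was narrow, with 5 × FAD 2 at 371 CPM and the WT mean at 366 CPM. For Slc12a5, the chloride transporter gene, the genotype effect in the hippocampus minus that in the cortex was 1.23 ± 0.30 (log2, SE), higher in 5 × FAD hippocampus and lower in 5 × FAD cortex. The interaction did not pass (edgeR, unadjusted p = 0.00177, adjusted p = 0.647). For Reln, the reelin gene, the same difference was −0.68 ± 0.31, lower in 5 × FAD hippocampus and higher in 5 × FAD cortex, and did not pass either (edgeR, unadjusted p = 0.0528, adjusted p = 0.702).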

How the results depend on the processing

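No member was called between the genotypes or in the interaction under any of the 14 to 19 alternatives of each comparison. Between the regions, the 3 member rows called became 1 with the replicate block, 0 in the WT or the 5 × FAD libraries alone, with or without the block, and 1 to 3 when 1 library was left out. The 2 sums called became 5 with DESeq2, 1 with no filter, 0 with the replicate block, 0 in either genotype alone, with or without the block, and 0 to 2 when 1 library was left out. The fits within 1 genotype hold 6 libraries, and the block fits within 1 genotype, like that leaving all-or-none rows out of the sums, were added after the data were seen. Same-numbered libraries of a genotype correlated across regions at r = 0.0060 to 0.132 over rows, with only the pair of 5 × FAD 3 above 0.1. Libraries of a genotype with different numbers correlated across regions at r = −0.106 to 0.058. Xist and Y-linked counts matched by number across the regions in 5 × FAD, and whether the numbers mark the mice is not given in the labels. The Kit ENSMUST00000148993 fold change in the hippocampus turned from 1.81 to −0.17 with detection of Xist as a covariate. In that fit 5 × FAD 3 alone is set against WT, and the cause was not tested. Over all features, calls ranged up to those of DESeq2, from 4 to 127 rows and 6 to 83 sums in the hippocampus, 12 to 102 and 2 to 53 in the cortex, 647 to 1276 and 806 to 1176 between regions, and 2 to 105 and 0 to 19 in the interaction. The lowest count over the alternatives was 0 in each. With 3 libraries a group and rows of few counts, differences could be missed, large ones included, and 0 calls do not show that levels were alike.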
